A study of Mus musculus with 10 samples.

Results

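Interferon-stimulated genes were followed in bulk RNA-seq of mouse heart after doxorubicin. The set was 45 genes fixed by symbol and matched through their Ensembl identifiers to the GENCODE annotation of GRCm39. It was chosen with earlier results of these data known, so the shares below do not come from a blind list. All 45 were among the 78298 genes of the count table, and all 45 were among the 16700 genes with enough counts to be tested. The study took hearts of female mice on a C57BL/6J background. 5 samples were labelled wild type, and the other 5 carried a germline deletion of p38δ, the stress-activated kinase that Mapk13 encodes. All 10 had received doxorubicin, an anthracycline chemotherapy drug with known heart toxicity, by 1 intraperitoneal dose of 30 mg/kg, and all hearts were taken after 72 h. No undosed heart was analysed here, so every value below compares genotypes under the drug and none measures the effect of the drug. A germline deletion acts in every tissue, so a difference in the heart need not come from heart cells. Samples are called wild type 1 to 5 and knockout 1 to 5, in the order of the deposited columns.

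Interferons are secreted proteins of antiviral and anti-tumour defence. Type I interferons bind the receptor made of Ifnar1 and Ifnar2, whose kinases activate STAT2. A complex that holds STAT2 and IRF9 binds the interferon-stimulated response element (ISRE) in the promoters of target genes. Interferon gamma, the type II form, binds Ifngr1 and Ifngr2 and acts mainly through a different element, the gamma-activated site (GAS). The targets act on viral RNA, on translation, on membranes around pathogens, or back on the pathway itself. Cardiomyocytes, endothelial cells, fibroblasts and macrophages of the heart all carry interferon receptors, and fragments of nuclear or mitochondrial DNA in the cytosol can start the response without infection.

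The upstream sequences of 6 members are printed because they show both elements and the likeness of the Ifit3 copies. Each window is the 250 bases before the start of the gene's canonical transcript in GRCm39, read 5′ to 3′ on the gene's own strand. Capitals in the first 5 mark the ISRE core GAAANNGAAA or its other-strand form TTTCNNTTTC, and overlapping matches run together. Capitals in the Irf1 window mark the GAS letters TTCNNNGAA, which read the same on both strands. The first is Ifit3, on chr19:34560649-34560898, plus strand.
Ifit3: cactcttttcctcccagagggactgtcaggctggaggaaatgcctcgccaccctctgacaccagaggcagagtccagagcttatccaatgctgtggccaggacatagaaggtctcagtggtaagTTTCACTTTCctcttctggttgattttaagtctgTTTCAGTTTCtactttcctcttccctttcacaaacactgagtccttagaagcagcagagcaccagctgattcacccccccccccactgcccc
Its near-identical neighbour is Ifit3b, on chr19:34585078-34585327, plus strand.
Ifit3b: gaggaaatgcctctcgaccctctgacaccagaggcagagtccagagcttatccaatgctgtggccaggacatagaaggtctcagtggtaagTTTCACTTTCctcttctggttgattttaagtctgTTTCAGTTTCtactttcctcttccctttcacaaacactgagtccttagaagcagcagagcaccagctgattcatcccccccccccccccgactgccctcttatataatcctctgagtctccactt
Ifit1 lies further along the same cluster, on chr19:34618021-34618270, plus strand.
Ifit1: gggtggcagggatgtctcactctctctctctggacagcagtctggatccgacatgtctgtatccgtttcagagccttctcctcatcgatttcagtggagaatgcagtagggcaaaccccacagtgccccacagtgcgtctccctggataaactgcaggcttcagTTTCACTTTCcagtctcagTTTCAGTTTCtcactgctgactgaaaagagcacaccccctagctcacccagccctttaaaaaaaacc
Isg15 has 3 overlapping matches close to its start, on chr4:156285304-156285553, minus strand.
Isg15: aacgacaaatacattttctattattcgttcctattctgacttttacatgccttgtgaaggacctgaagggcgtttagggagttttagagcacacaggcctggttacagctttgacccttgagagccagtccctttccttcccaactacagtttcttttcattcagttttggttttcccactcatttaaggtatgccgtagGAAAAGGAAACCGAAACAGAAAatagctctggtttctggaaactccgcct
Rsad2 has a single match, on chr12:26506452-26506701, minus strand.
Rsad2: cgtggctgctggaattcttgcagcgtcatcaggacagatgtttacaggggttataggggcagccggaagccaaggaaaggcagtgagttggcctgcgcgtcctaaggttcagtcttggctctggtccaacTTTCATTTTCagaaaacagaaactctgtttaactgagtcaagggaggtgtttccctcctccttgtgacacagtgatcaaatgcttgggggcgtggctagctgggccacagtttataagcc
Irf1 has a GAS and no ISRE core, on chr11:53660591-53660840, plus strand.
Irf1: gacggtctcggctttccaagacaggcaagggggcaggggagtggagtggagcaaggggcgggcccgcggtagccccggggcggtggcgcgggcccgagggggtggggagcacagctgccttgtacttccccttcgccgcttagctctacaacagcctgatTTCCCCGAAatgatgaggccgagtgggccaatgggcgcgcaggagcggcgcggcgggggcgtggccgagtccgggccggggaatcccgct
The ISRE core was present in 16 of 45 member windows (35.6%) and in 719 of the 21723 protein-coding windows of the same length (3.31%). The GAS letters were in 11 of 45 (24.4%) and in 1675 of 21723 (7.71%). 4 members had both, and matches of the 2 motifs overlapped in 3. Ifit3 and Ifit3b were near-identical in both respects. Their coding sequences were identical at 1198 of 1209 positions (99.1%), and the stretch that both upstream windows cover matched in 213 of 223 aligned columns (95.5%). The first base of the Ifit3 matches lay 126 and 92 bases before the annotated start and that of the Ifit3b matches 159 and 125, an offset of 33 bases at both. A match describes letters only. In the RefSeq windows of the older GRCm38.p6 build, which run from 250 bases before to 50 after the start, 33 members had an entry. 19 of these held an ISRE core (57.6%, against 3.99% of 27025 genes), among them 9 without a match in the first set of windows, such as Gbp2, Ifih1 and Eif2ak2. The share therefore depends on which transcript start and window are used.

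The libraries held 22082289 to 40627138 assigned counts in wild type and 21403189 to 33477767 in knockout, and the members together held 248295 counts. Cardiomyocyte marker transcripts summed to between 19912 and 58471 CPM, the count scaled to a common library size, in every library, so the tissue carried its label. Mapk13, the deleted gene, had counts of 292, 5, 2, 1 and 4 in wild type and 12, 10, 10, 15 and 9 in knockout. With all libraries it was not called (log2 fold change -1.76, adjusted p = 0.780 by edgeR). Without wild type 1 it separated the groups against their labels: every knockout library was above every wild-type library, with a log2 fold change of 2.13 (adjusted p = 0.0443 by edgeR) at levels of 0.270 to 0.487 against 0.0481 to 0.128 CPM. "Wild type" and "knockout" below therefore mean the libraries so labelled, in every direction given. The deleted exons are not stated in the labels, so whether these reads come from outside the deleted stretch was not tested. Wild type 1 stood apart. Its 8 lung and airway markers summed to 893 CPM, against 0.15 to 77.5 in wild type 2 to 5 and 0.14 to 6.69 in knockout. The 77.5 was that of wild type 3, and wild type 2, 4 and 5 were at 0.15 to 0.48. The macrophage and monocyte markers of wild type 1 summed to 548 CPM, against 129 to 195 in wild type 2 to 5 and 130 to 177 in knockout. Its cardiomyocyte markers were the lowest of all libraries. In bulk tissue, fewer cells of a type and less RNA per cell cannot be told apart. Values without wild type 1 are therefore given beside those with all libraries. Genotype and naming series coincide, since the wild-type samples share one title prefix and the knockout samples another, so a difference of cohort and one of genotype cannot be told apart. The labels do not state that each sample came from a separate animal, so the p-values speak only of how these samples vary, which may be technical.

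The interferon-stimulated genes were on the whole lower in the hearts labelled knockout, with a small difference that passed no test after adjustment in edgeR. 42 of 45 members (93.3%) had a negative log2 fold change of knockout over wild type, as did 53.4% of all genes tested. The exceptions were Irf1, Trim25 and Gbp4, of which Irf1 was at -0.08 with scaling to library totals in place of TMM. The median of the members was -0.50, against -0.01 over all genes. With wild type 1 left out the median was -0.18, and 37 of 45 were below 0 (82.2%), against 49.1% of all genes. Leaving out this 1 library thus removed most of the shift, and a smaller one in the same direction was measured among the other 9.

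No member passed an adjusted p of 0.05 in edgeR's quasi-likelihood test, lower or higher, where 0.114% of all genes were called lower. The same held without wild type 1, where 0.149% of all genes were called lower, and the smallest adjusted p was 0.108, for Gbp2. Before adjustment, 16 members (35.6%) were lower at p under 0.05 and 0 were higher, against 3.77% of all genes lower. Without wild type 1 the number was 13 (28.9%), all of them among the 16, against 2.82%. The 3 that dropped out were Mx1, Oas2 and Oas3. DESeq2 called 2 members lower over all 10 libraries, Cmpk2 (adjusted p = 0.0264) and Ifit3 (adjusted p = 0.0441), where it called 0.234% of its 22180 genes lower. It was not run without wild type 1, the highest library for both genes. The voom fit with sample weights called 0. In 6 members, Cmpk2, Gbp2, Ifit3b, Mx2, Oasl2 and Xaf1, all 5 knockout libraries lay below all 5 wild-type libraries (13.3%, against 0.898% of all genes). Wild type 1 was the highest library in each of these 6, so leaving it out could not end their separation. Without it the same 6 were separated, against 1.35% of all genes, and no member was separated in the other direction. The count depended on scaling, on wild type 5 and on the handling of near-identical copies. Scaled to library totals it was 3 (Cmpk2, Gbp2 and Xaf1), against 1.29% of all genes, and without wild type 5 it was 13, against 1.47% of all genes. With the counts of Ifit3 and Ifit3b added, the groups overlapped, with knockout 3 at 30.3 CPM and wild type 5 at 29.1. Margins were narrow in Ifit3b, Mx2, Oasl2 and Xaf1. Their highest knockout libraries were at 6.62, 2.71, 19.9 and 11.9 CPM, and their lowest wild-type libraries at 6.82, 2.75, 20.1 and 12.1.

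**Figure D1:**
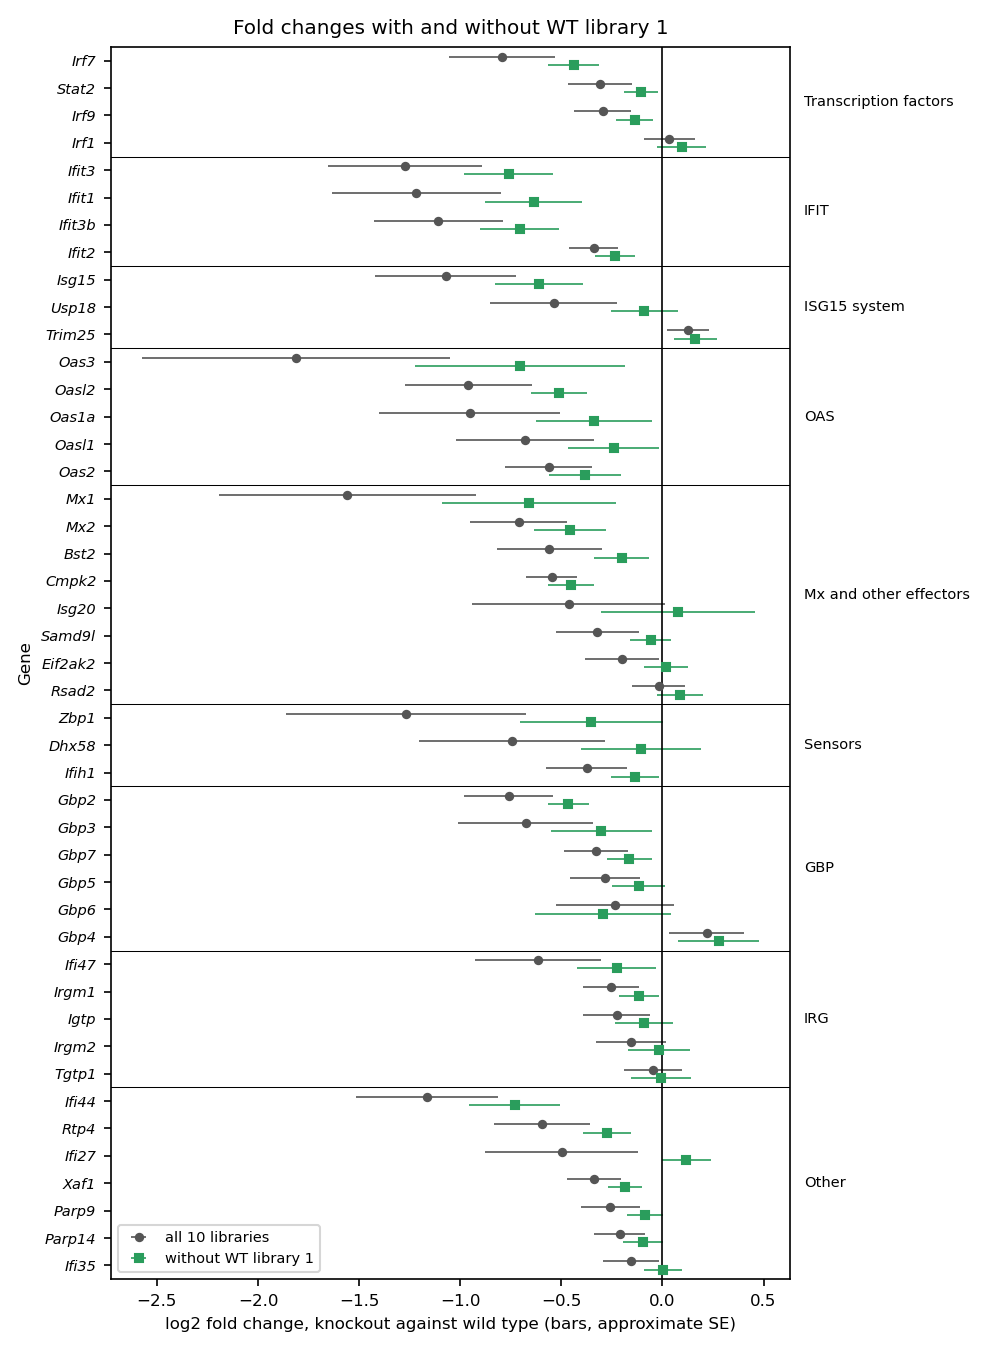
Log2 fold change of knockout over wild type (horizontal axis) for each of the 45 members, grouped by role, from edgeR, with all 10 libraries (grey circles) and without wild type 1 (green squares); bars are 1 approximate standard error. Nearly all points lie below 0, and most move towards 0 when wild type 1 is left out, where Ifit3 at -0.76 and Ifi44 at -0.73 are the lowest.

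The pattern over single libraries was uneven. Wild type 1 was the highest of the 10 libraries in 40 of 45 members (88.9%), as it was in 27.8% of all genes. Its level divided by the mean of wild type 2 to 5 ran from 0.784 in Gbp6 to 6.69 in Oas3 with a median of 1.94, and 21 members (46.7%) were more than 2 times higher there, against 10.8% of all genes. Among the other 9 libraries, wild type 3 was the highest in 15 of 45 members, wild type 2 in 9 and wild type 4 in 7. Over all genes these libraries were the highest in 6.95%, 8.63% and 13.8%, so the count for wild type 4 was near its share. Wild type 5 was highest in 0 and was the lowest of all 10 libraries in 6, so the wild-type group was not uniformly high. Knockout 1 was the lowest library in 16 members (35.6%, against 9.08% of all genes) and knockout 4 in 14 (31.1%, against 17.8%). Summed over the 45 members, the levels were 1268, 766, 812, 744 and 693 CPM in wild type 1 to 5. In knockout 1 to 5 they were 604, 653, 762, 581 and 726 CPM. Apart from wild type 1 the 2 groups overlapped in this sum, with knockout 3 and 5 above wild type 5 and knockout 3 also above wild type 4. Part of this order rested on Gbp6. With Gbp6 left out of the sum, knockout 3 at 597 CPM was just below wild type 4 at 599. Knockout 3 and knockout 5 (598 CPM) stayed above wild type 5 (560 CPM). The lowest library was then knockout 1 at 497 CPM, with knockout 4 at 542.

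**Figure D2:**
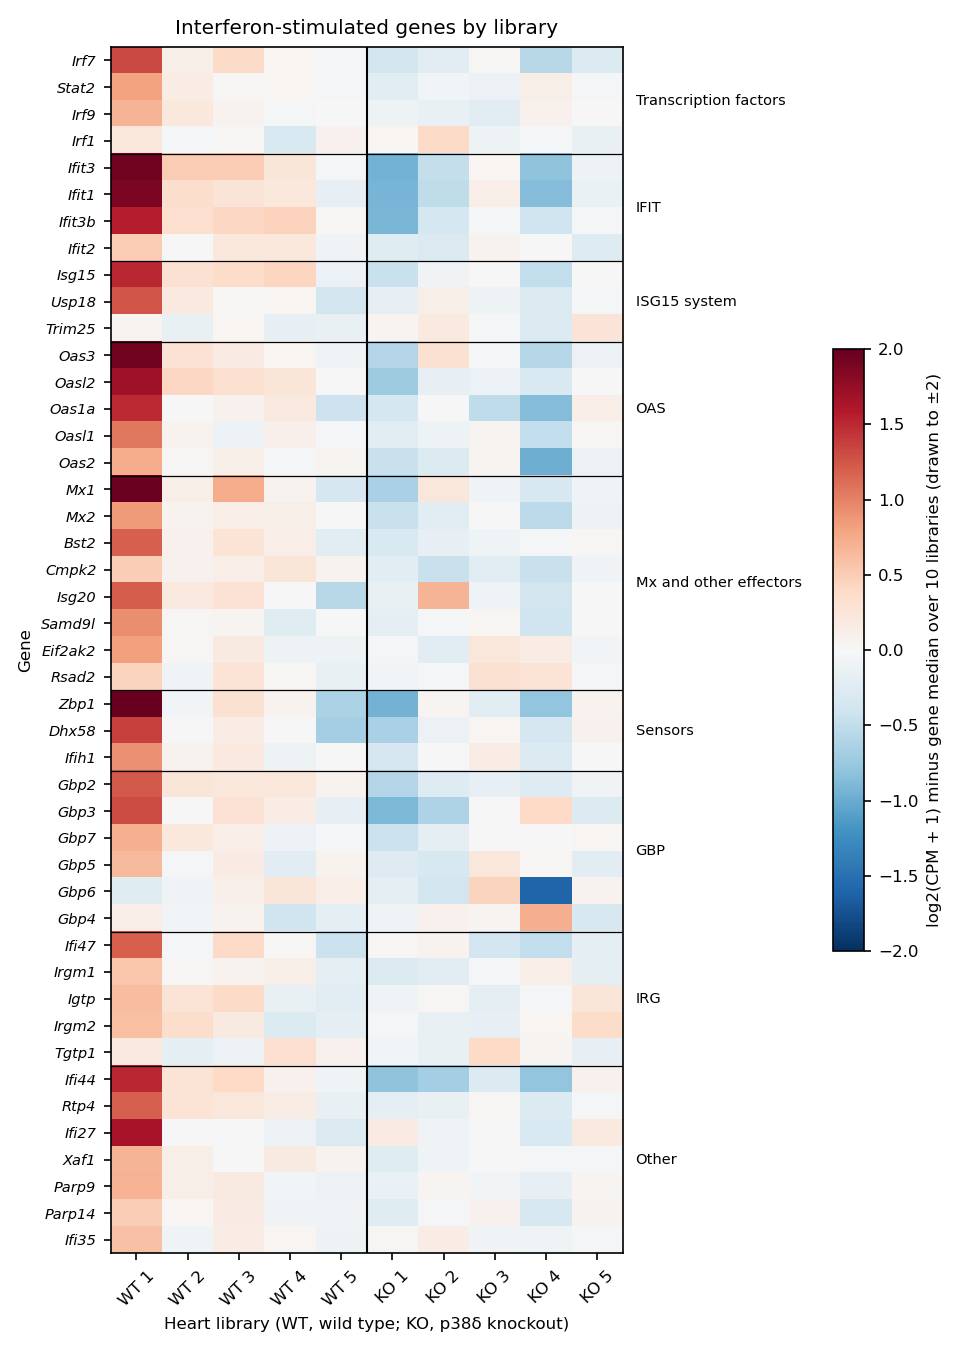
Level of each of the 45 members (rows, grouped by role) in each of the 10 libraries (columns), shown as log2(CPM + 1) minus the gene's median over the 10 libraries, with colours drawn from -2 to 2. The column of wild type 1 is high for nearly every gene, and knockout 1 and 4 hold most of the lowest cells.

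Between genes, levels were compared as mean CPM per kb of exon length. Gbp6 was the highest member at 17.1 CPM per kb, followed by Ifit3 at 10.1, Trim25 at 8.97, Irgm2 at 8.42 and Gbp2 at 8.16. Without wild type 1 these were at 17.3, 7.76, 8.93, 8.01 and 7.10, so Ifit3 then came behind Trim25 and Irgm2. Oas1a at 0.389 and Oas3 at 0.156 were the lowest with all libraries, and they stayed so at 0.299 and 0.0891 without wild type 1. The members that differed most between genotypes were found at both ends of this order.

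The IFIT proteins, which bind foreign-looking RNA and block its translation, were the role group with the lowest median. Their median log2 fold change was -1.16, or -0.67 without wild type 1, and all 4 had p under 0.05 before adjustment in both fits. Ifit3 (ENSMUSG00000074896, chr19:34560899-34566443) measured 90.0, 33.2, 33.0, 27.3 and 22.3 CPM in wild type 1 to 5 and 11.4, 16.3, 23.7, 12.8 and 21.2 CPM in knockout 1 to 5. Knockout 3 reached into the wild-type range, just above wild type 5, and the other 4 knockout libraries lay below every wild-type library. Its log2 fold change was -1.27 ± 0.38 (SE, adjusted p = 0.569 by edgeR), and without wild type 1 it was -0.76 ± 0.22 (SE, adjusted p = 0.474 by edgeR). Ifit3b (ENSMUSG00000062488, chr19:34585328-34590801) measured 22.0, 8.69, 9.23, 9.62 and 6.82 CPM in wild type and 3.11, 5.07, 6.62, 4.87 and 6.53 CPM in knockout, with no overlap between the groups. Its log2 fold change was -1.11 ± 0.32 (SE, adjusted p = 0.546 by edgeR), and without wild type 1 -0.71 ± 0.19 (SE, adjusted p = 0.365 by edgeR). Because reads of these copies are hard to assign, their counts were also added: the sums were 112, 41.9, 42.2, 37.0 and 29.1 CPM in wild type and 14.5, 21.3, 30.3, 17.6 and 27.8 CPM in knockout, with knockout 3 again just above wild type 5. Ifit1 ranged from 9.70 to 42.9 CPM in wild type and from 5.23 to 12.1 in knockout, and Ifit2 from 21.1 to 32.3 and from 18.0 to 23.5. Both overlapped between the groups.

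**Figure D3:**
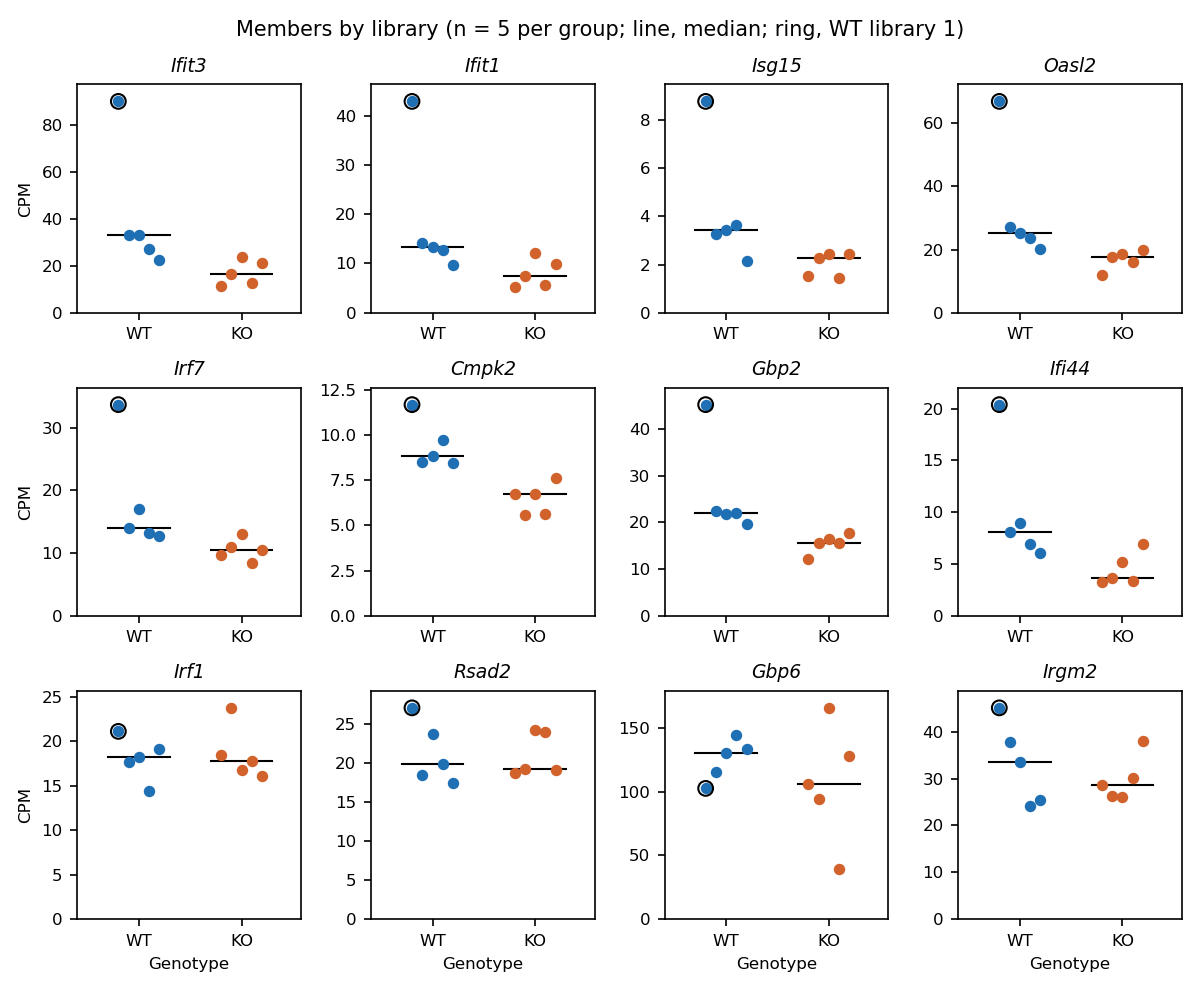
TMM-scaled CPM (vertical axis, from 0) of 12 members in each wild-type (WT) and knockout (KO) library; every point is 1 library, the line is the group median of 5 libraries and wild type 1 is ringed. In Cmpk2, Gbp2 and Oasl2 the groups do not overlap, and the ringed library is the highest there, so leaving it out cannot change this. In all other panels, Irf1 and Rsad2 among them, the groups overlap.

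The factors that carry the signal differed among themselves. Irf7, the regulator that amplifies type I interferon production, measured 33.7, 14.0, 17.0, 13.3 and 12.7 CPM in wild type and 9.68, 10.9, 13.0, 8.43 and 10.5 CPM in knockout. Only knockout 3 exceeded the lowest wild-type library, and the log2 fold change was -0.79 ± 0.26 (SE, adjusted p = 0.616 by edgeR). Without wild type 1 it was -0.44 ± 0.13 (SE, adjusted p = 0.405 by edgeR). Irf1, the factor that interferon gamma induces through its GAS, measured 21.1, 17.6, 18.2, 14.3 and 19.1 CPM in wild type and 18.4, 23.7, 16.7, 17.7 and 16.1 CPM in knockout. These groups lay over each other, with a log2 fold change of 0.03 ± 0.12 (SE, adjusted p = 0.969 by edgeR), or 0.10 without wild type 1. Stat2 and Irf9, which act together at the ISRE, were at 19.3 to 35.4 and 15.3 to 25.8 CPM in wild type and at 16.8 to 21.5 and 13.4 to 16.8 CPM in knockout. Neither reached p under 0.05 before adjustment, and their log2 fold changes of -0.31 and -0.30 became -0.11 and -0.14 without wild type 1.

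Isg15 is a ubiquitin-like protein that is attached to other proteins, Usp18 removes it and also damps receptor signalling, and Trim25 is a ligase for both ubiquitin and Isg15. Isg15 measured 8.79, 3.27, 3.42, 3.66 and 2.16 CPM in wild type and 1.53, 2.29, 2.43, 1.46 and 2.46 CPM in knockout. Knockout 2, 3 and 5 were above wild type 5, and the other wild-type libraries were above every knockout library. Its log2 fold change was -1.07 ± 0.35 (SE, adjusted p = 0.616 by edgeR), or -0.61 ± 0.22 (SE, adjusted p = 0.627 by edgeR) without wild type 1. Trim25 measured 54.2, 46.7, 53.6, 46.1 and 46.5 CPM in wild type and 53.8, 59.9, 50.3, 42.9 and 62.6 CPM in knockout, overlapping throughout, with a log2 fold change of 0.12 ± 0.10 (SE, adjusted p = 0.818 by edgeR), or 0.16 without wild type 1. Usp18 had a log2 fold change of -0.54 with all libraries and of -0.09 without wild type 1.

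All 5 members of the OAS family had negative log2 fold changes in both fits, with medians of -0.95 and, without wild type 1, -0.38. Enzymes of this family sense double-stranded RNA and make the messenger that switches on RNase L, which need not hold for every member here. Oasl2 measured 66.9, 27.1, 25.3, 23.8 and 20.1 CPM in wild type and 11.8, 17.7, 18.5, 16.1 and 19.9 CPM in knockout. The highest knockout library was just under the lowest wild-type library, so the groups were separate by a narrow margin. Its log2 fold change was -0.96 ± 0.32 (SE, adjusted p = 0.616 by edgeR), and without wild type 1 -0.51 ± 0.14 (SE, adjusted p = 0.351 by edgeR). Oas2 measured 24.3, 14.5, 15.4, 13.9 and 14.8 CPM in wild type and 10.2, 11.5, 14.8, 6.71 and 13.1 CPM in knockout. Knockout 4 was the lowest, and knockout 3 lay within the wild-type range, giving -0.56 ± 0.21 (SE, adjusted p = 0.674 by edgeR), or -0.38 without wild type 1. Oas3 had the most negative fold change of all members with 10 libraries, -1.81, and -0.70 without wild type 1, at levels of no more than 1.06 CPM outside that library. Oas1a shares 96.7% of its coding bases with Oas1g, so reads between these copies are uncertain.

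Among other antiviral effectors, Cmpk2 and its neighbour on chromosome 12, Rsad2, had unlike values. Cmpk2, a mitochondrial nucleotide kinase, measured 11.7, 8.54, 8.86, 9.72 and 8.44 CPM in wild type and 6.73, 5.60, 6.76, 5.61 and 7.64 CPM in knockout. Every knockout library was below every wild-type library, and wild type 1 was only modestly above its group. The log2 fold change was -0.55 ± 0.13 (SE, adjusted p = 0.206 by edgeR), the smallest p of the 45 members over all libraries. Without wild type 1 it was -0.45 ± 0.11 (SE, adjusted p = 0.232 by edgeR), and Gbp2 had the smallest p. Rsad2, which encodes viperin and starts 12752 bases from Cmpk2 on the opposite strand, measured 27.0, 18.5, 23.6, 19.8 and 17.4 CPM in wild type and 18.7, 19.2, 24.2, 23.9 and 19.0 CPM in knockout. The groups overlapped throughout, with a log2 fold change of -0.02 ± 0.13 (SE, adjusted p = 0.985 by edgeR), or 0.09 ± 0.11 (SE, adjusted p = 0.968 by edgeR) without wild type 1. The difference between these neighbours was itself not tested. Bst2, also named tetherin for holding budding viruses on the cell surface, measured 14.5, 6.19, 7.18, 6.45 and 4.81 CPM in wild type and 4.52, 5.07, 5.43, 5.71 and 5.87 CPM in knockout. Its groups overlapped and its log2 fold change was -0.56 ± 0.26 (SE, adjusted p = 0.717 by edgeR), or -0.20 without wild type 1. Of the remaining 5 effectors, Mx2 ranged from 2.75 to 5.71 CPM in wild type and from 1.59 to 2.71 in knockout without overlap. Mx1, Isg20, Eif2ak2 and Samd9l overlapped between the groups, and Isg20, Eif2ak2 and Rsad2 had positive log2 fold changes once wild type 1 was left out.

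The 3 sensors had a median of -0.74, the lowest after the IFIT and OAS groups, and of -0.14 without wild type 1. None of them had p under 0.05 before adjustment. Ifih1, which encodes the double-stranded RNA sensor MDA5, measured 25.5, 13.8, 15.1, 12.1 and 12.9 CPM in wild type and 10.1, 12.9, 14.6, 10.6 and 13.2 CPM in knockout. Wild type 1 was the highest and the other libraries overlapped, with a log2 fold change of -0.38 ± 0.20 (SE, adjusted p = 0.740 by edgeR), or -0.14 without wild type 1. Zbp1, a sensor of left-handed nucleic acid that can start cell death, measured 15.4, 2.89, 3.98, 3.22 and 1.60 CPM in wild type and 1.10, 3.17, 2.48, 1.33 and 3.23 CPM in knockout. The fold change rested on 1 library: it was -1.27 ± 0.59 (SE, adjusted p = 0.717 by edgeR) with all 10 and -0.35 ± 0.35 (SE, adjusted p = 0.940 by edgeR) without wild type 1. Its upstream window held 4 ISRE core matches.

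Guanylate-binding proteins and immunity-related GTPases attack membranes around intracellular pathogens and are known chiefly as interferon gamma targets. Gbp2 measured 45.2, 22.4, 21.8, 22.1 and 19.7 CPM in wild type and 12.2, 15.6, 16.6, 15.5 and 17.8 CPM in knockout. All knockout libraries were below all wild-type libraries. Its log2 fold change was -0.76 ± 0.22 (SE, adjusted p = 0.541 by edgeR), and without wild type 1 it was -0.47 ± 0.10 (SE, adjusted p = 0.108 by edgeR). Gbp6 measured 103, 116, 130.3, 144 and 133 CPM in wild type and 106, 94.4, 166, 39.2 and 128 CPM in knockout, and wild type 1 was the lowest of the wild-type libraries. Knockout 4 was far below the other 9 libraries and knockout 3 above them, with a log2 fold change of -0.23 ± 0.29 (SE, adjusted p = 0.882 by edgeR), or -0.29 without wild type 1. Gbp6 shares 98.4% of its coding bases with Gbp10, and the sum of both copies was 110.3, 99.3, 179, 40.8 and 135 CPM in knockout 1 to 5, so knockout 4 was low for the pair as well. Gbp4, on the same chromosome, was highest in knockout 4 at 32.8 CPM, against 14.5 to 21.3 in the other 9 libraries. The other Gbp members overlapped between the groups.

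Of the 5 immunity-related GTPases, all had negative log2 fold changes in both fits, between -0.62 and -0.05 with all libraries and between -0.23 and -0.01 without wild type 1, and 0 had p under 0.05 before adjustment. Irgm1 measured 36.6, 25.0, 25.7, 26.7 and 21.1 CPM in wild type and 19.9, 20.9, 24.0, 26.9 and 21.5 CPM in knockout, with a log2 fold change of -0.25 ± 0.14 (SE, adjusted p = 0.742 by edgeR), or -0.12 without wild type 1. Its groups overlapped apart from wild type 1. Irgm2 measured 45.1, 37.7, 33.5, 24.2 and 25.4 CPM in wild type and 28.6, 26.2, 26.1, 30.1 and 37.9 CPM in knockout, with a log2 fold change of -0.16 ± 0.17 (SE, adjusted p = 0.866 by edgeR), or -0.02 without wild type 1. Knockout 5 was as high as wild type 2, and the groups overlapped. Irgm2 overlaps Igtp on the same strand, and Tgtp1 shares 99.7% of its coding bases with Tgtp2, so the counts of these members depend on how reads were assigned. In all, 15 members overlap another protein-coding gene in span, Irf7, Parp9 and Ifi27 among them, and whether strand was used in counting is not given in the sources used here.

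Of the 7 remaining members, Ifi44 had the most negative fold change. It measured 20.4, 8.08, 8.92, 6.98 and 6.05 CPM in wild type and 3.31, 3.66, 5.24, 3.34 and 6.98 CPM in knockout. Knockout 5 lay within the wild-type range and the other 4 knockout libraries below it, giving -1.17 ± 0.35 (SE, adjusted p = 0.572 by edgeR), or -0.73 ± 0.22 (SE, adjusted p = 0.491 by edgeR) without wild type 1. Parp9, an ADP-ribosyltransferase-family protein, measured 33.9, 22.4, 23.5, 19.7 and 18.8 CPM in wild type and 18.6, 21.3, 19.7, 18.2 and 21.4 CPM in knockout. Parp14, its relative, measured 56.0, 40.5, 44.0, 37.3 and 37.2 CPM in wild type and 33.2, 38.2, 41.8, 31.3 and 41.3 CPM in knockout. In both, wild type 1 was the highest and the other libraries overlapped, with log2 fold changes of -0.26 ± 0.15 (SE, adjusted p = 0.748 by edgeR) and -0.21 ± 0.13 (SE, adjusted p = 0.750 by edgeR). The values without wild type 1 were -0.09 and -0.09. Xaf1, a pro-apoptotic protein, ranged from 12.1 to 19.9 CPM in wild type and from 9.95 to 11.9 in knockout without overlap. Ifi27 and Ifi35 turned from negative to 0.12 and 0.00 without wild type 1, and Rtp4 overlapped in both settings.

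The rest of the pathway was read from fixed lists, and edgeR called 0 of their genes lower or higher in either setting. The 11 interferon ligand genes had 6 counts in total over all libraries: Ifnb1 had 2, Ifna2 had 1 and Ifng had 3. None could be tested, and none reached 3 counts in any library, which correspond to 0.0659 to 0.144 CPM. The listed ligands were thus at or below what this depth can detect. Of the Ifna genes only Ifna1, Ifna2, Ifna4, Ifna5 and Ifna12 were in the list. Of the 10 receptor and signalling genes, 6 were below 0 with a median of -0.05, or 7 with a median of -0.01 without wild type 1, and 0 had p under 0.05 before adjustment in either. Ifnar1 had a log2 fold change of 0.01, Ifnar2 of -0.07, Ifngr1 of -0.08 and Ifngr2 of 0.25. They were at 0.06, -0.02, -0.02 and 0.16 without wild type 1. Ifngr2 was at 108 CPM in knockout 4 and at 39.3 to 64.2 CPM in the other libraries. The smallest p-values of that list belonged to Jak2, Jak1 and Il10rb, with fold changes of -0.08, -0.14 and 0.24, or -0.06, -0.20 and 0.13 without wild type 1.

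Of 17 genes for nucleic acid sensing and interferon induction, 16 were tested. With all libraries 13 were below 0 with a median of -0.13, and without wild type 1 the number was 10 with a median of -0.03. Before adjustment 1 gene was lower and 1 higher at p under 0.05 with all libraries, and 0 were without wild type 1. Mavs, the mitochondrial adaptor of RNA sensing and the higher one, had a log2 fold change of 0.19, or 0.15 without wild type 1. Ifi204, a DNA sensor, was at -0.97 and then at -0.38, and the single-stranded RNA receptor Tlr7 at -0.63 and then at -0.24. Rigi, the RNA helicase that signals through Mavs, was at -0.31, or -0.11 without wild type 1.

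Of 12 negative regulators, 11 were tested. With all libraries 9 were below 0 with a median of -0.15, and without wild type 1 the number was 7 with a median of -0.01. Rnaseh2b, a subunit of the nuclease that clears RNA within DNA, was at -0.32, or -0.27 without wild type 1. The related subunit Rnaseh2c was at -0.25 in both settings. The receptor inhibitor Socs3 was at -0.50 and then at -0.34, and the nucleotide-degrading enzyme Samhd1 at -0.16 and then at -0.01. Leaving out wild type 1 thus removed most of the shift of both lists.

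The further interferon-stimulated genes outside the 45 were also mostly below 0, with a smaller shift than the members. Of 51, 50 were tested and 46 were below 0 (92%), with a median of -0.39 and, without wild type 1, 37 below 0 (74%) and a median of -0.11. 11 had p under 0.05 before adjustment, and 8 without wild type 1, all lower. Of all genes 3.77% and 2.82% were lower so, and of the members 35.6% and 28.9%. In 1 of the 50 all knockout libraries lay below all wild-type libraries, in either setting, against 6 of the 45 members. The shares of all genes were 0.898% and, without wild type 1, 1.35%. Ifi27l2a, a mitochondrial membrane protein of the Ifi27 family, was at 92.4, 12.2, 14.7, 8.18 and 6.74 CPM in wild type and 5.90, 6.58, 5.09, 5.25 and 6.65 CPM in knockout. The fold change of -2.19 ± 0.74 (SE, adjusted p = 0.628 by edgeR) became -0.82 ± 0.21 (SE, adjusted p = 0.256 by edgeR) without wild type 1. Oas1g was at -1.19, Phf11d at -0.78 and Ifitm2, which blocks virus entry, at -0.47. Their values were -0.71, -0.41 and -0.28 without wild type 1. The antigen-processing list, also an interferon target, went otherwise: 10 of 13 were below 0 with a median of -0.02, and without wild type 1 only 1 of 13 was below 0, with a median of 0.08. Its smallest p-values were those of Erap1, Psmb9, Psmb8 and Nlrc5, with fold changes of -0.14, 0.16, -0.14 and -0.21, or -0.13, 0.33, 0.04 and 0.23 without wild type 1. Of 4 chemokines, Cxcl10 (-1.26, then -0.98) and Cxcl9 (-0.01, then 0.06) could be tested, and Cxcl11 and Ccl5 had 11 and 36 counts in total.

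By upstream sequence, the 16 members with an ISRE core had a median log2 fold change of -0.58 and the 29 without one -0.34. Without wild type 1 the medians were -0.25 and -0.14. For the GAS letters the order was the other way round, with -0.33 in the 11 members that had them and -0.54 in the 34 that had none, or -0.16 and -0.21 without wild type 1. These are descriptions of the windows, with no test. Oasl2, Cmpk2, Gbp2, Mx2 and Xaf1, separated between the groups, had no ISRE core in their windows, and Ifit3b, the remaining separated member, had 2. Gbp2 had one in its RefSeq window.

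Cell type markers are given beside these values because interferon-stimulated genes are expressed by many cells. Macrophage and monocyte markers were highest in wild type 1 (548 CPM), where the members were also highest. Of the 12 tested, 11 were below 0 and edgeR called 0. In the other 9 libraries their sums overlapped, 129 to 195 CPM in wild type and 130 to 177 in knockout, and no marker was at 0 in all libraries. B cell markers summed to 12.6 CPM in wild type 1 and to at most 2.54 elsewhere. T and natural killer cell markers summed to 14.3 CPM in knockout 2 and to 0.48 to 3.87 in the others. Of 3 plasmacytoid dendritic cell markers, a type known as a source of type I interferon, Ccr9 carried most of the sum. Ccr9 was at 2.89 CPM in knockout 2 and at 0.286 to 0.486 in the others, while Siglech was at no more than 0.141 CPM and Klk1 at no more than 0.110 in any library. Endothelial markers ranged from 575 to 679 CPM in wild type and from 604 to 710 in knockout. Fibroblast markers summed to 1535 CPM in wild type 1, to 779 to 946 in wild type 2 to 5 and to 700 to 756 in knockout, without overlap. Dcn carried most of this sum, at 631 to 1201.5 CPM in wild type and 504 to 593 in knockout. Every other fibroblast marker overlapped between the groups. Of the 7 tested, 6 were below 0, Col1a1 was above 0 at 0.19, and edgeR called 0. Mesothelium and epicardium markers were at 128 CPM in wild type 1, at 34.8 to 48.1 in wild type 2 to 5 and at 17.4 to 36.5 in knockout, with 7 of 7 below 0 and 0 called by edgeR. Atrial markers were at 1408 CPM in wild type 1, at 316 in wild type 2 and at 34.9 to 129 in the other 8 libraries, with 4 of 4 tested below 0 and 0 called. The part of these cell types in the differences of the members was not tested.

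**Figure D4:**
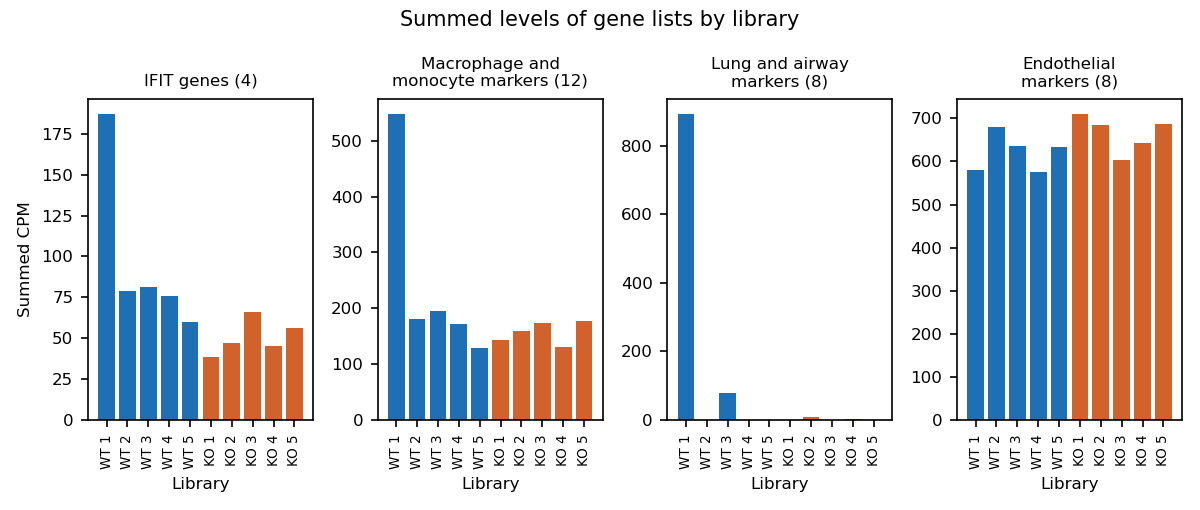
Summed CPM (vertical axes, from 0) of the 4 IFIT genes and of macrophage and monocyte, lung and airway and endothelial markers in each of the 10 libraries, wild type in blue and knockout in orange; each bar is 1 library. The IFIT sum is 187 CPM in wild type 1, 59.9 to 81.4 in wild type 2 to 5 and 38.6 to 65.9 in knockout, and wild type 1 also has the highest bar for macrophage and lung markers but not for endothelial ones.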

How the data were processed

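RNA from mouse hearts was sequenced, and the reads were aligned to GRCm39 with STAR, per the labels' protocols. Per the submitters' processing notes the tools included RSEM 1.3.0. The values deposited by the authors are expected counts per gene, stored as whole numbers and not normalised. No source used here states the trimming, the annotation release or the strand setting. RSEM shares reads between similar genes, which affects copies such as Ifit3 and Ifit3b.

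Counts were scaled by TMM and tested with edgeR 4.0.16 (filterByExpr with a minimum count of 10, robust quasi-likelihood test, wild type against knockout, 5 against 5, Benjamini-Hochberg over 16700 genes). The script was tested on simulated data. Standard errors are approximate, from the fold change and its F statistic. CPM are TMM-scaled, and CPM per kb use exon length in GENCODE release 39 of mouse. Alternatives were DESeq2 1.42.0, voom weights (limma 3.58.1), other scalings and filters, and leaving out each library. Pairs of libraries within a group differed by at least 8.59 in chi-square per degree of freedom, so none was a duplicate. The members, the gene lists and the leaving-out of wild type 1 were chosen with earlier results of these data known. Values in every library are given for called members, the 8 with the smallest p in each of both settings, and the 2 with the highest CPM per kb in each role. Pathway lists name up to 4 genes with the smallest p, plus receptors, Ifnb1 and Ifng; 1 further gene of that rule is not reported here. A gene's call means an adjusted p under 0.05.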

Additional observations from a re-analysis of the deposited data

Results flagged for a closer look

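In each member the 5 libraries of a group were searched for a single library far from the other 4 (Dixon's test with a critical value of 0.71, which marks about 1 in 20 groups by chance). Of 90 groups, 27 were marked, and in 26 of these the library was wild type 1, in each case the highest. The levels of wild type 1 were 42.9 CPM for Ifit1, 90.0 for Ifit3, 22.0 for Ifit3b, 8.79 for Isg15, 33.7 for Irf7 and 35.4 for Stat2. Among RNA sensors and OAS enzymes they were 9.60 CPM for Oas1a, 24.3 for Oas2, 5.36 for Oas3, 4.35 for Oasl1, 66.9 for Oasl2, 25.5 for Ifih1, 7.18 for Dhx58 and 15.4 for Zbp1. Among effectors they were 7.05 CPM for Mx1, 5.71 for Mx2, 11.0 for Usp18, 14.5 for Bst2, 27.3 for Eif2ak2 and 49.3 for Samd9l. The remaining ones were 19.9 CPM for Xaf1, 19.0 for Rtp4, 45.2 for Gbp2, 32.6 for Gbp3, 20.4 for Ifi44 and 34.1 for Ifi27. The flags are not independent, since they come from the same library. The only other one was Isg20 in knockout 2, at 2.89 CPM, the library that also had the highest T and natural killer cell marker sum.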

How the results depend on the processing

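Over 18 alternative settings, 809 values of single members were recomputed. 807 kept their side of the threshold, and 2, Ifit3 and Cmpk2 under DESeq2, passed the threshold that they had missed. DESeq2 thus called 2 members lower where edgeR called 0. With 0 members called in the main analysis, no call could be reversed, and a change of sign alone was not counted. Signs did change: 42 members were below 0 with all libraries and 37 without wild type 1. Over all genes edgeR called 59, DESeq2 129 and voom with sample weights 91. The median log2 fold change of the members was -0.50 in the main analysis, -0.21 with voom weights and -0.16 with both wild type 1 and knockout 4 left out, and it ran from -0.60 to -0.18 when each library was left out in turn, with the smallest shift without wild type 1. Scaling by library totals alone gave -0.67, with the median of all genes at -0.12, and cut the number of members whose groups did not overlap from 6 to 3, while the share of all genes so separated in the lower direction went from 0.898% to 1.29%. That number ran from 6 to 13 with each library left out, with 13 and 1.47% of all genes without wild type 5. No paired analysis was possible because the labels give the groups no shared replicate numbers. Depth limits the interferon ligands most, and Oas3 among the members, with 418 counts in all.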
